A study of Mus musculus with 12 samples.

Results

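The genes described here encode the membrane-associated progesterone receptor family (Pgrmc1, Pgrmc2 and Nenf), the nuclear progesterone receptor (Pgr) and the membrane progestin receptors of the PAQR family (Paqr5, Paqr6, Paqr7, Paqr8 and Paqr9). Members were the transcripts in the deposited table that carried one of these 9 gene symbols and that matched a reference transcript, were contained in one, shared a splice junction with one or overlapped one on its exons. This gave 9 of 24516 genes and 30 of 71967 transcripts, of which 14 matched a reference transcript and 16 were assembled by the authors and carry an MSTRG name. Testis RNA came from wild-type C57BL/6 mice, an inbred laboratory strain, at postnatal month 3, 6, 12 or 18 (3M, 6M, 12M and 18M), with 3 mice per age and 1 total RNA library per mouse after removal of ribosomal RNA. The comparisons asked how transcripts of the testis changed as the animals aged.

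PGRMC1 and PGRMC2 are small membrane proteins with a cytochrome b5-like domain that binds heme, and they interact with cytochrome P450 enzymes and with proteins of cholesterol synthesis. Neudesin, the product of Nenf, is a secreted protein with the same domain. The PAQR receptors span the membrane several times and signal at the cell surface, whereas the product of Pgr is a transcription factor. In the testis, progesterone is an intermediate of testosterone synthesis in Leydig cells, and in human sperm it activates the calcium channel CatSper.

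Library totals ranged from 50924104 to 71803379 reads, with a median of 56236682. Markers of germ cells and somatic cells of the testis were detected (all 6 spermatid and all 7 Sertoli markers had reads), and of 5 epididymis markers, Adam7 and Lcn5 were at 0 while Rnase10, Ros1 and Crisp1 had reads, with a sum of 5.09 to 5.29 CPM (reads of a gene scaled to the size of the library) at 3M and 5.005 to 6.123 at 18M. The summed level of 7 Leydig cell markers was 871 to 1048 CPM in the 3M mice and 814 to 1320 in those of 6M. It was 625 to 696 CPM in the 12M mice and 550.0 to 760 in those of 18M. The sum of 6 spermatid markers was 12490 to 13830 CPM in the 3M mice and 11530 to 12900 in the 6M mice. It was 12950 to 17240 CPM in the 12M mice and 12890 to 15460 in those of 18M. The part of these shifts in the values below was not tested.

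At the Paqr5 and Pgrmc1 loci, most reads of a gene were assigned in some or all libraries to a transcript that starts elsewhere than the reference one, and the sequences at these starts are shown for that reason. Paqr5 lies on the minus strand of chromosome 9. MSTRG.21008.2 and NM_028748 each have the introns of a GENCODE vM21 transcript of Paqr5 (GRCm38, the same build as mm10), and the starts of their coding sequences are read from those 2 GENCODE transcripts. Capitals mark the first coding exon, at chr9:61988993-61989043 for NM_028748 and chr9:61976443-61976451 for MSTRG.21008.2, and lower case the first 30 coding bases of the next exon, which both share.
Paqr5 as in NM_028748: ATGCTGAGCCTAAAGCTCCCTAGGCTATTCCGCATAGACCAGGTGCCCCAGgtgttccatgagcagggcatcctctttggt
Paqr5 as in MSTRG.21008.2: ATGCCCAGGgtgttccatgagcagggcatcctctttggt
The first coding exon holds 51 bases in the former and 9 in the latter, and the coding sequences with their stop codon are 993 and 951 bases long. Pgrmc1 lies on the plus strand of chromosome X. The sequence below, from RefSeq (GRCm38.p6), covers chrX:36597943-36598195, where the assembled transcript MSTRG.21829.3 splices from its upstream exon to a second exon that begins 3 bases inside the first exon of NM_016783. Capitals mark the last 20 bases of the upstream exon, followed by GT at the start and AG at the end of the intron of 233 bases. The last 3 bases of this intron are the first 3 of NM_016783.
Pgrmc1: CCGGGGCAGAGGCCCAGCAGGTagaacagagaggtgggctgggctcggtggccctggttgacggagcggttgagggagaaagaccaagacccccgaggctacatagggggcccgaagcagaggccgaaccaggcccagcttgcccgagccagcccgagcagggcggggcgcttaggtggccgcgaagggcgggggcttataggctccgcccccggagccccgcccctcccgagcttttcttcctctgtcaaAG

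By level, the members ranged from a gene near the top of all genes with reads to one that was barely detected. The level of a gene is the summed FPKM of its transcripts (fragments scaled to transcript length and to the mapped fragments of the library), which can be compared between genes. Paqr5, which encodes mPR gamma, was highest at 110 ± 10.7 FPKM (SD, n = 12), above 97.5% of genes with reads. Paqr9, which encodes mPR epsilon, followed at 56.3 ± 2.04 FPKM, and then Pgrmc1 at 34.3 ± 4.41 and Pgrmc2 at 28.1 ± 2.35. Nenf had 12.98 ± 1.62 FPKM, Paqr8 (mPR beta) 10.8 ± 0.497 and Paqr7 (mPR alpha) 9.28 ± 0.711. Paqr6, which encodes mPR delta, was low at 1.57 ± 0.365 FPKM, and Pgr was at 0.00390 ± 0.00604. The libraries of Pgrmc1 and Pgrmc2 overlapped in level, as did those of Nenf and Paqr8 and those of Paqr8 and Paqr7, whereas the other neighbours in this order did not overlap. The order is a description and rests on the assembled transcripts. With only transcripts marked in the deposited table as matching a reference, Paqr5 dropped to place 8 of 9 at 0.711 FPKM. The Paqr5 transcript left out in that case, MSTRG.21008.2, is not marked as a match but has the introns of a protein-coding GENCODE transcript of Paqr5.

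**Figure D1:**
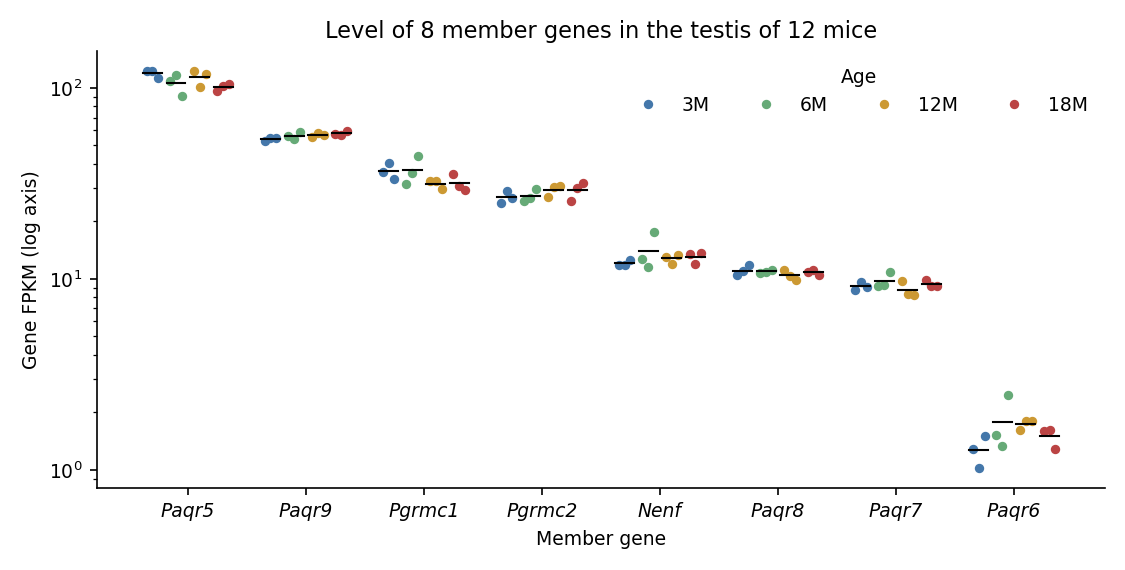
Summed FPKM (log axis) of 8 member genes, ordered by mean level, with 1 point per mouse, colour for age and a black bar for the mean of 3 mice. Paqr5 lies highest, between 91.3 and 123 FPKM, Paqr6 lowest, between 1.02 and 2.48, and Pgr is left out because 7 libraries had no reads.

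No member gene was called in the main test, either over age or at any step. Reads summed per gene were tested with edgeR against age in months over 12 libraries, and 0 of 8 members were called at an adjusted p of 0.05 or less, where 0.168% of 25590 genes and loci were called (43, of which 29 fell). Between 3M and 18M, 0 of 8 members were called against 0.0641% of all 24965 tested. At 3M versus 6M, 6M versus 12M and 12M versus 18M, again 0 of 8 were called, against 0.0682%, 0.0401% and 0.016% of all tested. At an unadjusted p under 0.05, 0 members passed in the test of age, 1 in 3M versus 18M (Paqr5) and 0 in the other 3 comparisons. Over all genes and loci, 3892 of 25590 passed that level in the test of age and 2986 of 24965 in 3M versus 18M, so 1 of 8 is near the background. Pgr had too few reads for these tests. Over the 8 members, the log2 fold change from 3M to 18M lay between -0.23 (Paqr5) and 0.34 (Paqr6), and the median of all genes tested was 0.0058. In bulk tissue, fewer cells of a type and less RNA per cell cannot be told apart.

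Pgrmc1 kept about the same number of reads at every age, while the transcript those reads were assigned to differed between libraries. In CPM, its summed level was 72.6, 81.0 and 67.4 in the 3M mice and 66.7, 71.8 and 86.0 in the 6M mice. The 12M mice had 71.8, 66.2 and 64.9 CPM and the 18M mice 75.5, 68.0 and 64.5. The ages overlapped, and the fold from 3M to 18M was 0.945 (95% interval 0.819 to 1.09, edgeR, adjusted p = 0.734). Of its 5 transcripts, NM_016783 (1870 nt, 3 exons) is the reference mRNA, and the other 4 were assembled.

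NM_016783 had 3804, 4597 and 3877 reads in the 3M libraries and 499, 3621 and 4906 at 6M. At 12M it had 1070, 3546 and 962 reads, and at 18M 478, 648 and 1203. Every 18M library lay below every 3M library, and 1 of 3 at 6M and 2 of 3 at 12M lay as low. The log2 fold change from 3M to 18M was -2.56 (SE 0.29), with an adjusted p of 0.118 by edgeR, which did not pass, and of 7.6e-17 by DESeq2, which did. NM_016783 is among the transcripts that the study itself chose in these samples, so its values are no independent evidence.

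MSTRG.21829.3 (2142 nt), which starts upstream at position 36597688 of chromosome X, took the reads that NM_016783 lacked in most of those libraries. It had 3, 0 and 0 reads in the 3M libraries and 5, 0 and 0 in those of 6M. The 12M libraries had 3167, 0 and 3145 reads and the 18M libraries 1423, 2952 and 3439. Summed over the 3 mice and scaled to the libraries, 7814 reads at 18M against 3 at 3M gave a ratio of 2392 (exact 95% interval 818 to 11600, counting error only). These are reads as the assembler divided them, and the interval covers neither that division nor the spread between mice. All 3 reads came from 3M mouse 1, and the fitted log2 fold change of 11.03 became 14.31 without that mouse, where the 3M libraries are at 0 and the fitted value is no bound, and 10.48 to 11.3 without any one of the other mice. Its adjusted p between 3M and 18M was 0.165 by edgeR and 2.0e-28 by DESeq2. MSTRG.21829.1 had reads in 2 libraries, 2877 in 6M mouse 1 and 1006 in 18M mouse 1, and MSTRG.21829.2 (990) and MSTRG.21829.4 (382) only in 18M mouse 1.

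As a share of the reads of the gene, the 4 assembled transcripts together took 0.0263 ± 0.0455% (SD, n = 3) at 3M and 28.4 ± 49.2% at 6M. They took 50.4 ± 43.7% at 12M and 81.6 ± 7.38% at 18M. The libraries fell into a pair of sets with nothing between: 6 at 74.1 to 88.8% (1 at 6M, 2 at 12M and 3 at 18M) and 6 at 0 to 0.0788%. For NM_016783 the share fell by 81.6 percentage points from 3M to 18M, with an exact permutation p of 0.1 (two-sided), the smallest that 3 against 3 mice can give. In the edgeR test of each transcript against the others of its gene, MSTRG.21829.3 was the one member transcript called, of 23 tested (adjusted p = 0.0031), against 0.278% of all 35597. That call was lost with the mouse number as a block (adjusted p = 0.222), and on simulated counts without any change the same test also made calls.

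**Figure D2:**
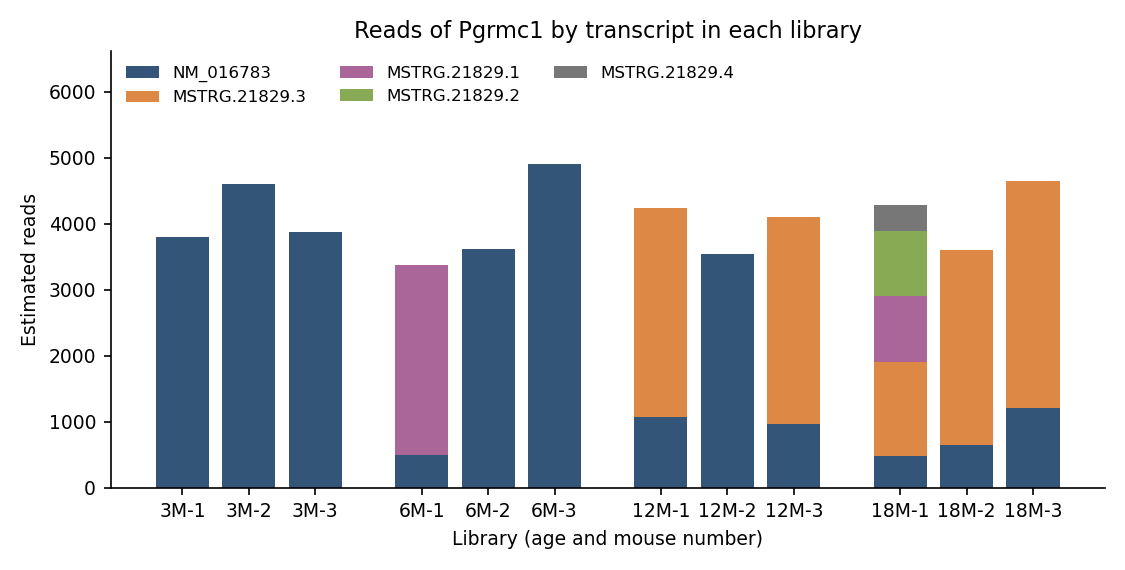
Estimated reads of the 5 Pgrmc1 transcripts, stacked, in each of the 12 libraries. The height of the bars stays between 3381 and 4906 reads, while NM_016783 holds 478 to 1203 of them in 6 libraries and nearly all in the other 6.

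Few reads lay on the bases that set the assembled Pgrmc1 transcripts apart. The upstream first exon of MSTRG.21829.3, at chrX:36597688-36597962 (275 nt), had a coverage of 0 to 2.25 reads per base, and no gene of GENCODE vM21 overlaps it. The upstream first exons of all 4 assembled transcripts together held 0 to 8.1 reads per library, also in the libraries where 2882 to 3801 reads were assigned to those transcripts. In 18M mouse 3 this was 0.4 reads, against 3439 assigned. The exons that all 5 transcripts share kept their coverage: exon 2 of NM_016783 (156 nt), as coverage scaled to library size and summed over transcripts, had 5.44 ± 0.326 at 3M and 5.31 ± 0.749 at 18M (exact permutation p = 0.8, n = 3 per age), and exon 3 (1292 nt) had 3.82 ± 0.416 and 3.58 ± 0.153 (exact permutation p = 0.5, n = 3 per age). NM_016783 has only 3 bases of its own. The number of reads on the upstream exons did not scale with the reads assigned: 3M mouse 1 had 2.8 of them with 3 reads assigned, and 18M mouse 2 had 2.7 with 2952 assigned. Their presence did go with the assignment outside 3M mouse 1. 3M mice 2 and 3, 6M mice 2 and 3 and 12M mouse 2 had 0 reads there and 0 assigned. How the assembler divided these reads was not tested.

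**Figure D3:**
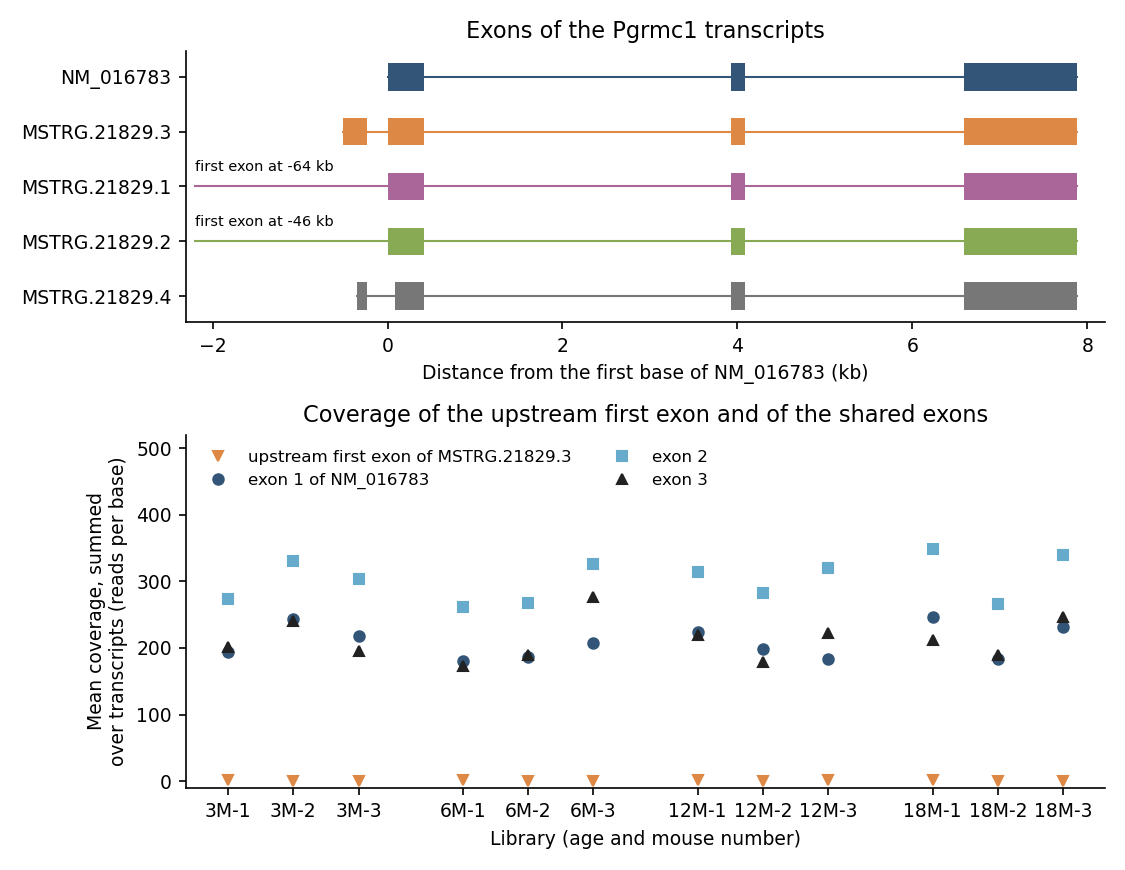
Top, exons of the 5 Pgrmc1 transcripts by distance in kb from the first base of NM_016783, with the first exons of MSTRG.21829.1 and MSTRG.21829.2 beyond the left edge. Bottom, mean coverage (reads per base, summed over transcripts) of the upstream first exon of MSTRG.21829.3 and of the exons of NM_016783 in each library, where exon 2 lies between 261 and 349 and the upstream exon near 0 throughout.

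Pgrmc2, the close relative of Pgrmc1, was measured at 71.2, 76.2 and 72.2 CPM at 3M and at 69.8, 78.1 and 89.2 at 18M, and the ages overlapped. Its fold was 1.08 (95% interval 0.932 to 1.26, edgeR, adjusted p = 0.633). NM_027558 took 82.8 to 90.4% of its reads, and MSTRG.12787.2, an assembled transcript of 1297 nt, took the rest. The share of MSTRG.12787.2 was 13.3 ± 3.55% at 3M and 13.9 ± 3.04% at 18M (exact permutation p = 0.8, n = 3 per age). Nenf, with 1 transcript, had 8.27, 8.33 and 8.94 CPM at 3M and 9.51, 8.39 and 9.68 at 18M, with a fold of 1.08 (95% interval 0.930 to 1.26, edgeR, adjusted p = 0.638). Its highest value, 12.1 CPM, came from 6M mouse 3.

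Pgr, the nuclear receptor, was close to undetected. Its transcript had 4, 4 and 0 reads at 3M, 0 in all 6 libraries of 6M and 12M, and 8, 2 and 2 reads at 18M, 20 reads in all. A library with 0 reads allows up to 3, counting error only. The libraries of 3M and 18M overlapped, and no test was made on so few reads.

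Paqr5, the highest of the members, had the lowest p of the members between 3M and 18M, and its coverage differed between libraries mainly in 1 exon. Its summed level was 163, 162 and 150.2 CPM in the 3M mice and 146, 155 and 119 in the 6M mice. The 12M mice had 162, 136 and 154 CPM and the 18M mice 129, 136 and 139. Each 18M mouse was below each 3M mouse, and among the 8 members tested such a separation was seen in 2, Paqr5 (lower) and Paqr9 (higher), against 21.1% of 20488 genes with a mean of 1 CPM or more. The fold was 0.854 (95% interval 0.784 to 0.930), with an adjusted p of 0.352 by edgeR and 0.0337 by DESeq2, which called 1.02% of all genes tested.

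MSTRG.21008.2 (1226 nt, 7 exons) took 96.8 to 98.8% of the Paqr5 reads, 6646 to 9887 per library, and NM_028748 (3500 nt) took 92 to 237 reads. The first exon of MSTRG.21008.2, at chr9:61976443-61976629, had a coverage of 396 to 679 reads per base. The first exon of NM_028748, at chr9:62026687-62026790, had 0 to 1.26, and its second exon, which holds the longer first coding exon printed above, had 0.002 to 2.91.

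Coverage of the last exon of MSTRG.21008.2, at chr9:61955949-61956287 (339 nt, of which 239 are coding in the GENCODE transcript), split the libraries. Summed over both transcripts, it was 499.7, 483.1 and 470.1 reads per base in the 3M mice and 422.8, 442.9 and 30 in the 6M mice. The 12M mice had 510.0, 19.4 and 28.5 and the 18M mice 29.0, 28.3 and 47.6. The 6 libraries with the higher value (422.8 to 510.0) and the 6 with the lower (19.4 to 47.6) did not come near each other. Scaled to library size, the mean was 8.74 ± 0.702 at 3M and 0.570 ± 0.0806 at 18M, a log2 ratio of -3.94 (exact permutation p = 0.1, the smallest possible with n = 3 per age).

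The other exons of Paqr5 did not follow the last one. Exons 1 to 6 together had 14.8, 15.03 and 13.9 at 3M and 14.3, 15.2 and 15.6 at 18M on the same scale, a log2 ratio of 0.04 (exact permutation p = 0.4, n = 3 per age). Exon 6, the neighbour of the last exon, had 17.3 ± 0.305 at 3M and 17.7 ± 1.37 at 18M. The lower value of Paqr5 at 18M in the summed reads was thus not seen in exons 1 to 6, a measure added after seeing the data. What lowered the coverage of exon 7 in those libraries was not tested. No other deposited transcript of any of the 12 libraries has an exon on these bases, on either strand. Over all members, 26 exon segments had a mean of 1 or more on this scale, and 2 differed by over 3-fold between libraries: this exon, by 26.2-fold, and the 3 bases particular to NM_016783, by 8.405-fold. The others differed by at most 1.74-fold. Each segment value sums the mean coverages that the assembler gave to whole exons. The value at those 3 bases is thus that of exon 1 of NM_016783 as divided by the assembler, not coverage measured on them.

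**Figure D4:**
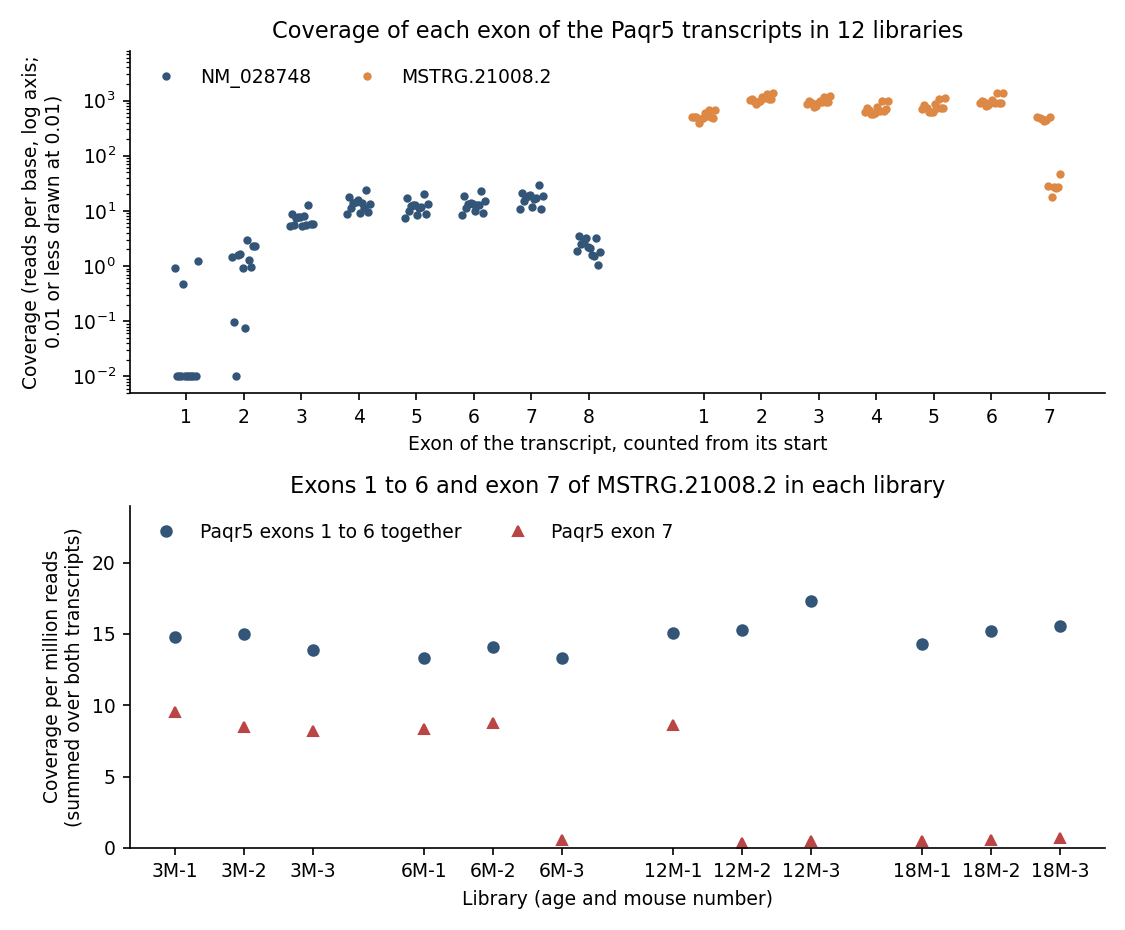
Top, coverage (reads per base, log axis) of each exon of the Paqr5 transcripts with 1 point per library. Bottom, coverage scaled to library size of exons 1 to 6 and of exon 7 of MSTRG.21008.2 in each library, where exons 1 to 6 stay between 13.3 and 17.3 and exon 7 is 8.18 to 9.53 in 6 libraries and 0.363 to 0.662 in the other 6.

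Paqr6, a receptor known from the brain, had 2.15, 1.58 and 2.45 CPM in the 3M mice and 2.48, 2.18 and 3.93 in the 6M mice. The 12M mice had 2.57, 3.06 and 3.05 CPM and the 18M mice 2.59, 2.89 and 2.31. The ages overlapped and the fold from 3M to 18M was 1.26 (95% interval 0.923 to 1.72, edgeR, adjusted p = 0.505). Its 2 reference transcripts differ by 330 bases that only NM_198410 has. NM_001310597 had 0 reads in 2 of 3 libraries at 18M and 36 to 105 in the other 10 libraries, while NM_198410 had a log2 fold change of 0.99 (SE 0.48) that did not pass (edgeR, adjusted p = 0.920). The 330 bases themselves held 14.2, 13.9 and 18.5 reads at 3M and 25.8, 12.4 and 6.0 at 18M, so the ages overlapped there.

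Paqr7, with 11 transcripts, differed by at most 1.17-fold between libraries. It had 52.4, 57.7 and 54.0 CPM at 3M and 59.5, 53.0 and 53.2 at 18M, a fold of 1.01 (95% interval 0.909 to 1.13, edgeR, adjusted p = 0.928). Its 6 assembled transcripts start upstream of every reference start and took 71.8 to 87.0% of the reads, and NM_001285849 had none in any library. The largest of them, MSTRG.14669.6 (9367 nt) and MSTRG.14669.5, took 31.0% and 29.0% on average. First exons of the assembled transcripts, each taken alone, had a coverage of at most 12.98 reads per base. Summed over transcripts, the stretch chr4:134494702-134495516, which 5 of these first exons hold, had 14.1 to 21.2.

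Paqr8 had 43.3, 46.7 and 48.6 CPM at 3M and 44.6, 46.1 and 42.9 at 18M, with a fold of 0.967 (95% interval 0.874 to 1.07, edgeR, adjusted p = 0.777). NM_028829 took 76.8 to 84.0% of its reads and the assembled MSTRG.80.2, which starts at another first exon (chr1:20917393-20917889), the rest. The share of MSTRG.80.2 was 19.3 ± 3.03% at 3M and 21.6 ± 0.490% at 18M (exact permutation p = 0.3, n = 3 per age).

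Paqr9 varied least between mice, with 168 to 183 CPM over 12 libraries. It had 174, 168 and 172 CPM at 3M and 178, 176 and 182 at 18M, so that each 18M mouse lay above each 3M mouse, and the fold was 1.04 (95% interval 0.982 to 1.11, edgeR, adjusted p = 0.525). NM_198414, its intronless mRNA, took 66.9 to 75.1% of the reads. The next 2 transcripts, MSTRG.21265.1 and MSTRG.21265.2, begin upstream over the GENCODE lincRNA Gm32281 (chr9:95554497-95558913, the same strand) and exchanged reads between libraries. MSTRG.21265.1 had 7.01 to 7.53% of the reads in 3M mouse 1, 6M mouse 3 and 18M mouse 2, where MSTRG.21265.2 had 17.6 to 23.4%. In the other 9 libraries MSTRG.21265.1 had 20.1 to 24.6% and MSTRG.21265.2 3.17 to 5.05%. Their sum stayed at 23.4 to 31.0% in all 12 libraries, and the reads summed for Paqr9 include those of first exons that overlap Gm32281.

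At the level of transcripts, 0 of 25 members passed in the test of age in months (0.0103% of 58289 called) and 0 of 24 between 3M and 18M (0.108% of 54472 called), with 3 members in each at an unadjusted p under 0.05, a level that 4167 and 2941 of all transcripts tested passed. DESeq2 called 2 members in the test of age, NM_016783 and MSTRG.21829.3, where it called 1.72% of all. It called 3 between 3M and 18M, NM_016783, MSTRG.21829.3 and MSTRG.21008.2, where it called 3.35% of all. By p and fold change, the study asked for an unadjusted DESeq2 p of at most 0.05 and a log2 change of at least 1. These criteria alone called 3 members against 5.26% of all transcripts, and MSTRG.14669.2 of Paqr7 took the place of MSTRG.21008.2. The study's FPKM filter and its choice of a continuous rise or fall were not applied. MSTRG.14669.2 averaged 0.320, 0.0440, 0.229 and 0.0456 FPKM at 3M, 6M, 12M and 18M. Its reads overlapped between the ages, with 264, 36 and 7 at 3M and 19, 8 and 26 at 18M. Its adjusted p between 3M and 18M was 0.921 by edgeR and 0.299 by DESeq2.

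**Figure D5:**
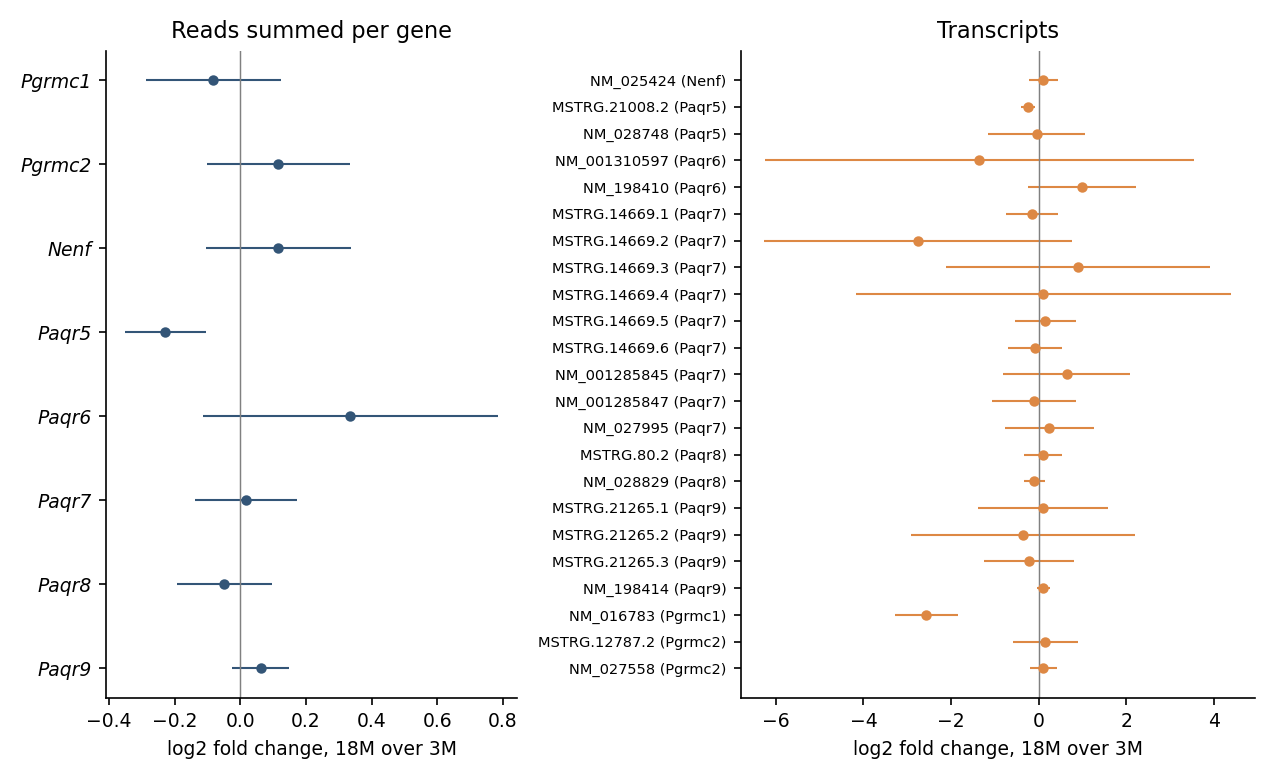
Log2 fold change from 3M to 18M with its 95% interval (edgeR), for reads summed per gene (left, 8 members) and for transcripts (right, 23 of the 24 tested). Gene intervals lie within -0.35 to 0.79. Among the transcripts, NM_016783 lies at -2.56 (interval -3.29 to -1.84) and MSTRG.14669.2 at -2.75 with a wider interval (-6.26 to 0.757). MSTRG.21829.3 is left out because its fold rests on 3 reads at 3M.

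Genes that work with the members were followed in 5 lists, each given by its counts and by its median slope in log2 per month, where all genes tested had a median of 0.0 and 0.168% were called. Of 16 partners of the membrane-associated family, 0 were called, 13 had a negative slope and the median was -0.013. The lowest p-values belonged to Alas1, the first enzyme of heme synthesis (93.9 ± 3.41 CPM at 3M and 79.1 ± 3.61 at 18M, adjusted p = 0.0684), and to Scap, the sterol-sensing escort of transcription factors of cholesterol synthesis (25.3 ± 1.72 and 19.3 ± 1.99 CPM, adjusted p = 0.0944). Cyb5r3, a reductase of cytochrome b5, had 43.1 ± 1.36 and 37.2 ± 0.969 CPM (adjusted p = 0.101), and Por, the reductase of P450 enzymes, 18.5 ± 0.389 and 16.6 ± 0.0921 (adjusted p = 0.172). DESeq2 called Alas1, Scap and Cyb5r3, but not Por, in this test, where it called 1.9% of all genes.

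Of the 6 other members of the PAQR superfamily, 0 were called and the median slope was -0.017. Adipor2, an adiponectin receptor, had 38.5 ± 1.42 CPM at 3M and 32.3 ± 1.23 at 18M (edgeR, adjusted p = 0.170; called by DESeq2). Mmd2 had 37.1 ± 1.27 and 32.1 ± 3.44 CPM (edgeR, adjusted p = 0.214). Paqr3 and Paqr4, at 1.71 to 3.28 CPM on average at 3M, had adjusted p-values of 0.351 and 0.392.

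Of 11 genes of progesterone synthesis and conversion tested, edgeR called 2 lower with age, Cyp17a1 and Cyp11a1, and 0 higher, and the median slope was -0.021. Cyp17a1, which converts progesterone toward androgens, had 152 ± 32.5 CPM at 3M and 55.6 ± 6.99 at 18M (slope -0.10, SE 0.0078, adjusted p = 1.4e-04). Cyp11a1, which makes pregnenolone from cholesterol, had 67.8 ± 13.2 and 23.2 ± 8.79 CPM (slope -0.11, SE 0.013, adjusted p = 0.0058). Between 3M and 18M alone, edgeR called neither Cyp17a1 (adjusted p = 0.0761) nor Cyp11a1 (adjusted p = 0.298), and DESeq2 called both. In the test of age, Hsd3b6 (77.8 ± 11.1 and 40.4 ± 8.13 CPM, adjusted p = 0.0922) and Star (38.2 ± 12.7 and 21.4 ± 2.51 CPM, adjusted p = 0.110) did not pass with edgeR and were called by DESeq2. These 4 genes also mark Leydig cells, and 6 of the 7 Leydig markers had an unadjusted p of 0.05 or less in the test of age, so gene level and cell share cannot be told apart for them.

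Of the nuclear steroid receptors other than Pgr together with Gper1, 0 of 6 were called. Esr1, an estrogen receptor, had 3.61 ± 0.204 CPM at 3M and 2.84 ± 0.730 at 18M (edgeR, adjusted p = 0.239). Of 10 genes of the progesterone response of sperm, 0 were called, and 6 slopes were positive and 4 negative. Among the subunits of CatSper, Catsper2 had 328 ± 12.7 CPM at 3M and 310.0 ± 4.87 at 18M (edgeR, adjusted p = 0.374), and Catsper4 140 ± 11.8 and 155 ± 3.79 (edgeR, adjusted p = 0.231).

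The genes whose level across the 12 libraries was most like that of Pgrmc1, by Pearson's r of log2(CPM + 1) among 11670 genes with a mean of 5 CPM or more, were Eid1 (r = 0.93), Slc38a2 (0.92), Gng12 (0.92), Unc119b (0.91) and Las1l (0.91). Slc38a2 encodes an amino acid transporter and Gng12 a G protein subunit. Most like Paqr5 were Gm6583 (r = 0.87), Rex2 (0.86), Scfd1 (0.83), Cep95 (0.83) and Ccdc39 (0.82), of which Cep95 encodes a centrosomal protein and Ccdc39 a protein of the ciliary axoneme. These values come from 12 libraries that share their processing, are the highest of many and describe these libraries only, and those of Paqr5 include the split in its last exon. Between members, the correlation reached 0.74 for Pgrmc1 with Paqr7 and -0.71 for Paqr5 with Paqr6.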

How the data were processed

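Total RNA of the testis of 12 mice was sequenced after removal of ribosomal RNA. The authors aligned reads with HISAT2 to mm10 and assembled and quantified transcripts with StringTie 1.3.3b. The deposited estimated counts are coverage times length over the read length of 101, rounded up by the authors to whole numbers, and were used as they are, and the authors' FPKM values are per transcript length and mapped fragments. Exon coverage came from the deposited assemblies, and 0 deposited columns were left unmapped. Reads on exons shared by transcripts were divided between them by the assembler, and strand was not marked, so antisense reads cannot be told apart.

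Counts were tested per gene and per transcript over the whole table by the quasi-likelihood method of edgeR 4.0.16 under R 4.3.3 (filterByExpr, TMM factors, Benjamini-Hochberg adjustment, call at an adjusted p of 0.05 or less). Transcript usage was tested with edgeR's diffSpliceDGE. CPM use the TMM library sizes. Between ages only the 6 libraries compared entered the fit, and all 12 entered the fit on age. Shares and scaled coverage had two-sided exact permutation tests (scipy 1.17.1). DESeq2 1.42.0, limma 3.58.1 on FPKM with a pseudocount of 0.1 or 1, other scalings and filters, a block for the mouse number and each library left out were alternatives, and the tests were tried on simulated data. Intervals and floors cover counting error or the spread of 3 mice.

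The members and lists were chosen with earlier results of these data known. Named were all members and their transcripts, up to 4 genes per list with the lowest p in the test of age, and the 5 genes most like Pgrmc1 and Paqr5. The values of 1 listed gene are not reported here. The scaled exon coverage of Pgrmc1 and Paqr5 was added after seeing the data. Marker genes of Sertoli cells, spermatogonia, spermatocytes, myoid cells, endothelium, macrophages, epididymis and blood gave 0 calls by edgeR in the test of age, those of spermatids 0, and those of Leydig cells 2. DESeq2 calls were read only for the up to 4 genes per list with the lowest edgeR p. Among those genes, DESeq2 also called Acrv1 (spermatids, higher) and Lhcgr, Hsd3b6 and Star (Leydig, lower). Its calls among further markers were not counted.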

Additional observations from a re-analysis of the deposited data

Results flagged for a closer look

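2 further transcripts carry the symbol Paqr5 but lie wholly in an intron of it and were outside the comparisons. MSTRG.21009.1 (chr9:61957899-61958403, 505 nt) had 9 to 41 reads per library, with a median of 22 over the 12 libraries. MSTRG.21010.1 (chr9:61976707-61980836, 4130 nt) had 195 to 338 reads, with a median of 278, and begins 78 bases from the 5′ end of the first exon of MSTRG.21008.2. The assemblies place both on the plus strand, opposite to Paqr5, but the libraries did not mark strand. The level of MSTRG.21010.1 was 4.86 ± 0.344 CPM (SD, n = 3) at 3M and 4.69 ± 0.387 at 18M. Both lie above the 3 reads that a count of 0 allows.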

How the results depend on the processing

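Over all features, the count of calls depended on the tool. DESeq2 called 564 genes against 43 in the test of age, 298 against 16 between 3M and 18M, 114 against 17 between 3M and 6M, 132 against 10 between 6M and 12M and 62 against 4 between 12M and 18M. Of transcripts it called 1075 against 6 in the test of age and 2083 against 59 between 3M and 18M. By the p and fold change criteria of the study alone it called 3268. With the mouse number as a replicate block, the gene counts were 22 (age), 0 (3M and 18M), 2 (3M and 6M) and 2 (6M and 12M), the transcript counts 3 and 0, and the usage count 46 against 99. Same-number pairs did not stand out by correlation: 0 of 18 were over 0.1 (-0.0645 to 0.0718), and other pairs spanned -0.0912 to 0.0702. Since no pair of either kind passed 0.1, that level cannot separate them, and 4 libraries correlated best with their own number. Whether the number marks a pairing or a batch cannot be told from these values. With all 12 libraries in the fit, the counts were 25 (3M and 18M), 6 (3M and 6M), 1 (12M and 18M), 18 (transcripts) and 152 (usage). Without a filter on low counts, 3 and 22 transcripts were called, and with matching transcripts only, 15 genes in the test of age. With 1 library left out, gene counts were 13 to 114 (age), 18 to 35 (3M and 18M), 21 to 42, 13 to 24 and 8 to 24 in the 3 steps, transcript counts 3 to 8 and 8 to 25, and usage counts 134 to 163. The cause was not tested.

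Among the members, DESeq2 called 1 gene between 3M and 18M where edgeR called 0. It called 2 transcripts in the test of age and 3 between 3M and 18M. The p and fold change criteria of the study alone called 3. The call in transcript usage went from 1 to 0 with the block. In the order of levels, 3 of 9 genes kept their place in CPM and 1 with matching transcripts only. With 1 library left out, the share of NM_016783 differed by -85.39 to -78.02 percentage points and that of MSTRG.21829.3 by 53.64 to 78.02. The sign of Paqr7 turned, with a slope of -0.003404 to 0.001173 log2 per month (0.0008334, 6.581e-05, 0.0006159, 2.707e-05, 0.0002093 and 0.001138 in the other cases of a positive sign) and a log2 fold change of -0.03611 to 0.05809 (-0.01093 in the other negative case). Paqr5 went from -0.23 to 0.0449 with exons 1 to 6 alone. Of the remaining values, 371 values of single members kept their direction and call, and 182 counts and shares were equal or near to the main value. Some of these counts over all features still differed, such as 37 (library size only) and 48 (without 12M mouse 3) against 43 genes in the test of age. Others were counts of 0 members called.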
